A study of Mus musculus with 2 samples.

Results

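The cytosolic thyroid hormone binding protein gene Crym was about double in RNA of ureters labelled as Fgfr1 and Fgfr2 double mutants. Of 6 other genes of the same hormone system 0 were called in the same RNA. Of all genes tested 3.79% were called, a share at which 0 of 6 does not set these genes apart. These 7 genes, Crym, the hormone receptors Thra and Thrb, the deiodinases Dio2 and Dio3 and the response genes Klf9 and Hr, are the subject here. They were found by gene name among the gene spots of both arrays, which gave 36 of 177043 spots on each array, 9 of 39429 probes and 7 of 22070 genes tested. All 9 probes passed the filter on dim signals, with all 4 spots well above background for both genotypes on both arrays. The set was drawn up because Crym was among the largest rises in the mutant RNA. The ratio of Crym therefore stands as a description with no test, and the other 6 genes, which joined it for their role, are given with the p-values of the fit over all genes.

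Thyroid hormone circulates mainly as thyroxine, a prohormone that enters cells through transporters. Inside the cell Dio2 removes an outer-ring iodine and makes triiodothyronine, the active form, whereas Dio3 removes an inner-ring iodine and inactivates both. Crym, mu-crystallin, binds triiodothyronine in the cytosol with the help of NADPH and also acts as a ketimine reductase. Thra and Thrb encode nuclear receptors that bind DNA, mostly as dimers with retinoid X receptors, and switch between corepressors without hormone and coactivators with it. Klf9, a zinc finger transcription factor, and Hr, the corepressor hairless, are induced by the hormone in brain and other tissues and serve there as readouts of its action.

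Total RNA came from ureters of NMRI mouse embryos, taken at E15.5 and then cultured for 6 days on membranes. Control embryos had the genotype Fgfr1(fl/?);Fgfr2(fl/?), with floxed alleles and no Cre listed, and mutant embryos, named Fgfr1/2cDKO, carried Tbx18(cre/+) and were homozygous for both floxed alleles, Fgfr1(fl/fl) and Fgfr2(fl/fl). Cre from the Tbx18 locus acts in the mesenchyme around the ureteric epithelium and its descendants, so the epithelium should keep both receptors, and Cre at that locus cannot be told apart from receptor loss. There were 2 two-colour arrays, each with 1 mutant and 1 control RNA, labelled male on array 1 (mutant in Cy5) and female on array 2 (mutant in Cy3), so replicate, sex label and dye cannot be told apart. The labels do not say how many embryos made up an RNA sample or whether the pairs came from separate litters, so the spread behind each p-value is that between these samples and may be technical. The comparison asks which transcripts differ between these genotypes. The deleted genes themselves gave no clear check of the labels. Fgfr1 had -0.33 ± 0.15 (SD, n = 2; limma adjusted p = 0.134), and Fgfr2 was higher in the RNA labelled mutant, by 0.56 ± 0.02 (SD, n = 2; limma adjusted p = 0.0309). Since the epithelium should keep both receptors, RNA of the whole ureter need not show less of either. The labels do not name the deleted exons, so whether these probes lie within them is not known. Below, mutant means RNA labelled as mutant, and every direction rests on that label.

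The scanner software put between 70.3% and 78.3% of gene spots well above background, depending on the channel. The tissue label was checked against 2 marker lists. The 8 ureteric smooth muscle markers and the 8 urothelial markers were all well above background in both genotypes. Nkx2-1 and Foxe1, markers of thyroid follicle cells, were not well above background in either genotype. The summed normalised signal of 6 such markers that were tested was 975 and 1001 in the control RNAs and 995 and 1041 in the mutant RNAs. The sum mixes directions, as on both arrays 5 of the 6 were lower in mutant RNA and Pax8 was higher. In mutant RNA Tshr was not well above background, and Duox2 was so on 1 array alone. Levels below are log2 normalised signals, in which each probe carries an added offset of 50, and are compared within a probe. Ratios are log2 of mutant over control, as mean ± SD over the 2 arrays. The whole ureter was measured, so fewer cells of a type and less RNA per cell cannot be told apart.

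Probe sequences are shown for Crym and Thra, since Crym carries the largest ratio of the set and Thra is read at distant places. They were read from the scanner files, 5′ to 3′, as those files give them. The Crym probe and the first Thra probe are given by their first 30 bases. The second Thra probe is given whole, at 60 bases. It spans 807 bases of the genome, and so crosses an exon junction.
Crym: cccctattcatgtttgtggttggatagcta
Thra probe A: aaatggtagtcatcctaactgcactttgga
Thra probe B: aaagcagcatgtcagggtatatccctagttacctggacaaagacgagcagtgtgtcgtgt
The Crym probe lies on the minus strand at chr7:127329970-127330029 (mm9) and begins at base 1124 of its transcript. Thra probe A lies on the plus strand at chr11:98626356-98626415 and begins at base 2176, and probe B at chr11:98617475-98618281, beginning at base 536. Both Thra probes carry the same transcript accession in the file, and whether a probe lies in a coding part or a UTR is not given in the files used here.

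Crym was higher in both mutant RNAs. Its level was 10.51 and 10.66 in the control RNAs of arrays 1 and 2, and 11.81 and 11.56 in the mutant RNAs. The lower mutant value therefore stood above the higher control value. The ratio was 1.30 on array 1 and 0.90 on array 2, a mean of 1.10 ± 0.29 (SD, n = 2), or 2.14-fold. The spots repeated this within each array. On array 1 the 4 spots ran from 1.21 to 1.37, and on array 2 from 0.85 to 0.93, so the arrays differed in size by more than the spread among spots. Among the 22070 genes, 6 had a mean ratio as high as that of Crym or higher, Crym included. As the set was chosen on this ratio, nothing further is read from it.

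**Figure D1:**
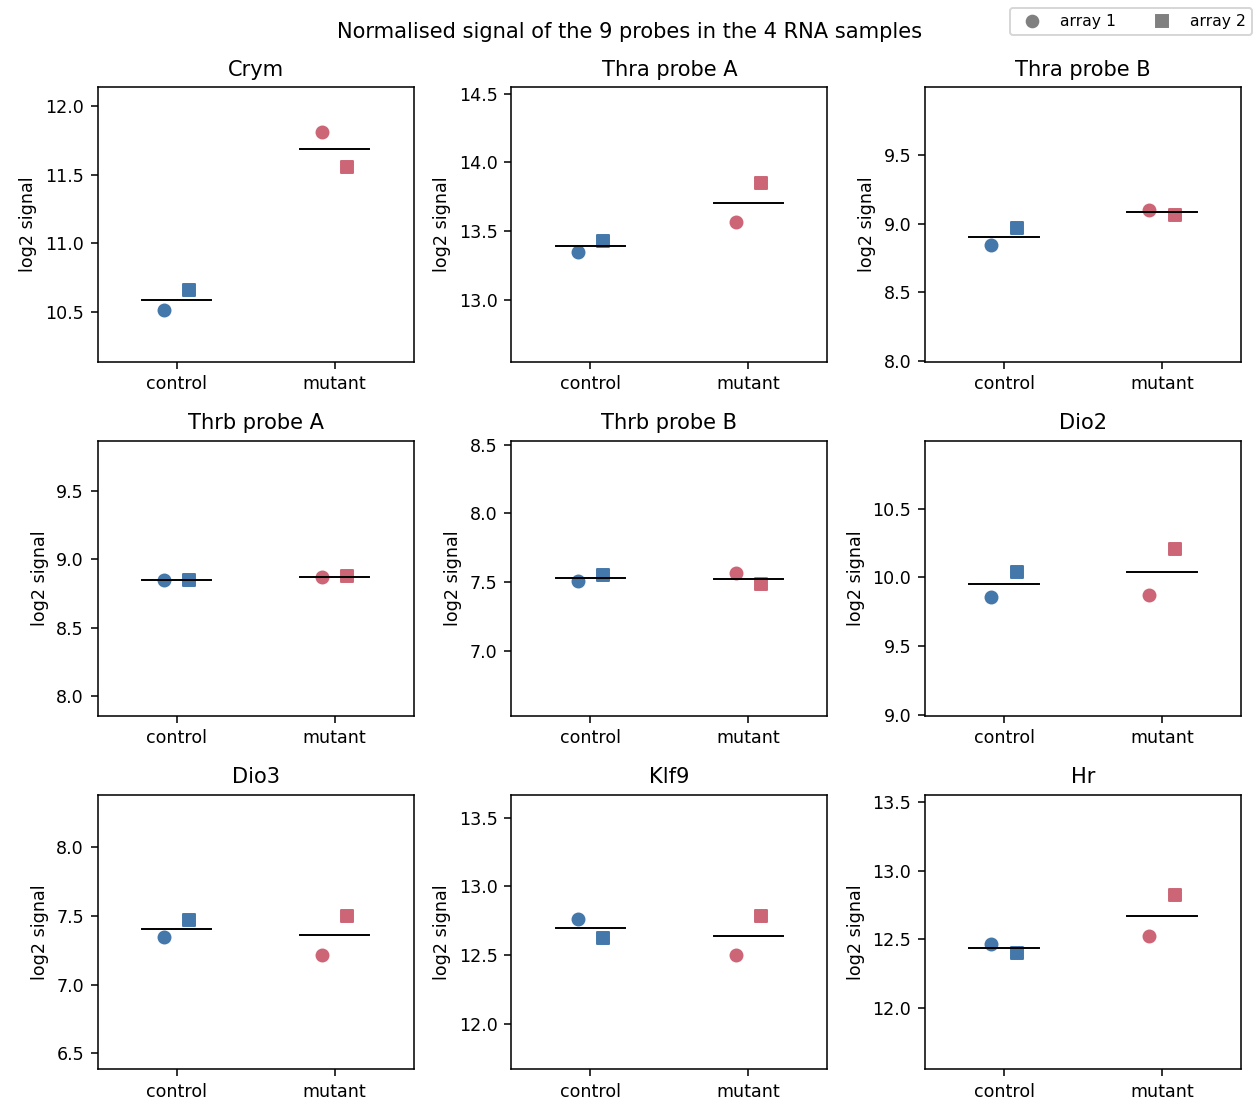
Normalised log2 signal (vertical axis, a span of 2 units in every panel) of each of the 9 probes in control (blue) and mutant (red) RNA, with circles for array 1, squares for array 2 and a line at the mean of both; Thra and Thrb have 2 probes each, A the brighter. Crym separates the genotypes by 1.10 on average, and each other probe by 0.32 or less.

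The gene of the main receptor form in most tissues, Thra, had a small ratio above 0 that did not pass. Probe A read 13.35 and 13.43 in the control RNAs and 13.56 and 13.85 in the mutant RNAs of arrays 1 and 2, so the genotypes did not overlap. Such an order, with both mutant RNAs above both controls, was present in 21.5% of all genes tested, and the opposite order in 23.5%. Besides both Thra probes it held for Crym, probe A of Thrb and Hr. The ratio of Thra was 0.22 on array 1 and 0.42 on array 2, a mean of 0.32 ± 0.14 (SD, n = 2; limma adjusted p = 0.144), or 1.25-fold, with a 95% interval of the moderated fit from 0.07 to 0.57. Probe B gave 0.26 on array 1 and 0.09 on array 2, a mean of 0.18 ± 0.12 (SD, n = 2). Both probes were above 0 on both arrays, with probe A higher on array 2 and probe B higher on array 1. Under median centring the ratio of Thra was 0.07 (limma adjusted p = 0.695). On the GRCm38.p6 assembly Thra shares 1075 bases with its neighbour Nr1d1, the gene of a clock repressor. Whether either Thra probe, placed on mm9, lies in that stretch was not examined. Nr1d1 had a ratio of -0.04 ± 0.06 (SD, n = 2; limma adjusted p = 0.859).

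Thrb, the receptor gene that predominates in liver and pituitary, showed nearly equal signals. Its probe A, on the plus strand at chr14:18868800-18868859 (mm9), read 8.85 in both control RNAs, and 8.87 and 8.88 in the mutant RNAs. The ratio was 0.03 on both arrays, a mean of 0.03 ± 0.00 (SD, n = 2; limma adjusted p = 0.911), with a 95% interval from -0.21 to 0.26. A smaller spread between arrays was seen in 0.372% of genes, yet the single spots ran from -0.02 to 0.07 on array 1 and from -0.09 to 0.18 on array 2. Probe B, at chr14:18869432-18869491 and dimmer, gave 0.06 on array 1 and -0.07 on array 2.

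The 2 deiodinases, which work against each other on the hormone, had ratios near 0. The activating enzyme gene Dio2, at chr12:91963235-91963294 on the minus strand, read 9.86 and 10.04 in the control RNAs and 9.87 and 10.21 in the mutant RNAs, so the genotypes overlapped. Its ratio was 0.01 on array 1 and 0.17 on array 2, a mean of 0.09 ± 0.11 (SD, n = 2; limma adjusted p = 0.665; 95% interval -0.16 to 0.34). The inactivating enzyme gene Dio3, an imprinted gene at chr12:111518792-111518851 on the plus strand, was dim, with 7.35 and 7.47 in the control RNAs and 7.22 and 7.50 in the mutant RNAs. Mean spot signals before correction were 173 and 241 in control RNA and 167 and 116 in mutant RNA, in different dyes. The ratio of Dio3 was -0.13 on array 1 and 0.03 on array 2, a mean of -0.05 ± 0.12 (SD, n = 2; limma adjusted p = 0.827; 95% interval -0.30 to 0.20). On array 1 all 4 Dio3 spots lay below 0, and on array 2 they ran from -0.15 to 0.20.

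Neither response gene passed. Klf9, at chr19:23240410-23240469 on the plus strand, read 12.76 and 12.63 in the control RNAs and 12.50 and 12.79 in the mutant RNAs of arrays 1 and 2. The mutant value was thus the lower on array 1 and the higher on array 2, with ratios of -0.26 and 0.16 and a mean of -0.05 ± 0.30 (SD, n = 2; limma adjusted p = 0.849; 95% interval -0.34 to 0.24). Its spots kept to their array's direction, from -0.28 to -0.24 over the 3 spots used on array 1 and from 0.07 to 0.22 over 4 spots on array 2. The spread between arrays was larger than for 90.2% of genes. Hr, at chr14:70973263-70973322 on the plus strand, read 12.46 and 12.40 in the control RNAs and 12.52 and 12.82 in the mutant RNAs. Its ratio was 0.06 on array 1 and 0.42 on array 2, a mean of 0.24 ± 0.25 (SD, n = 2; limma adjusted p = 0.284; 95% interval -0.04 to 0.52). The mutant values lay above the control values, by a margin on array 1 that the spots put between 0.02 and 0.09.

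**Figure D2:**
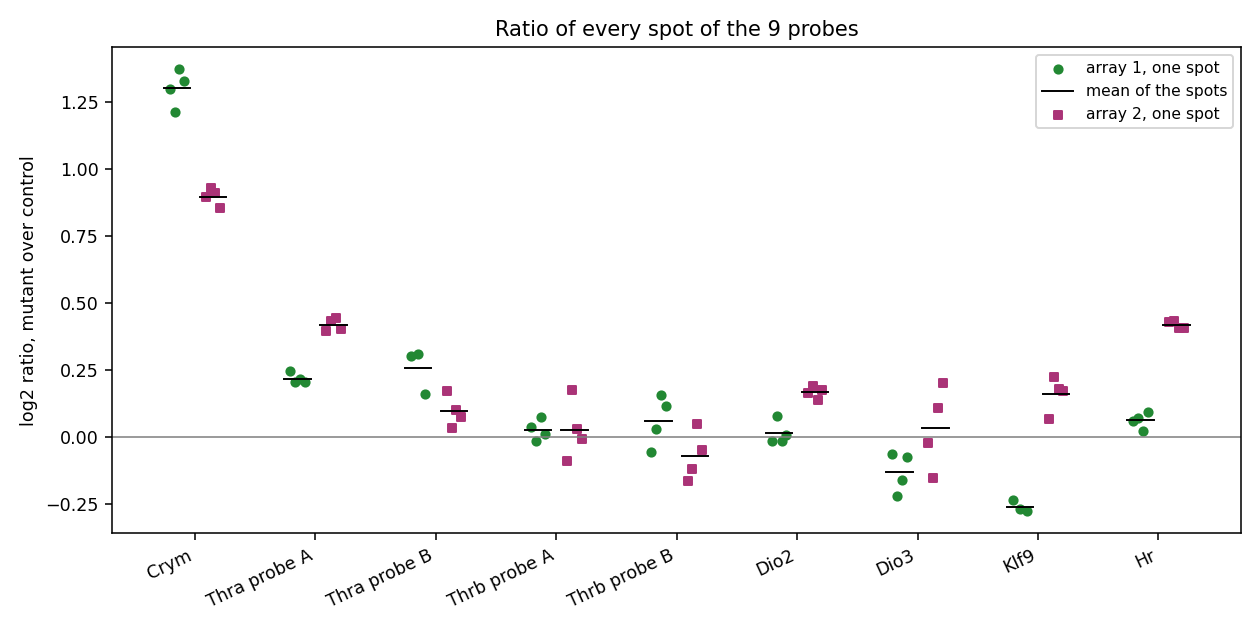
Log2 ratio of mutant over control (vertical axis) of every used spot of the 9 probes, with circles for array 1, squares for array 2 and a black line at the mean of the spots of an array. Klf9 spots lie below 0 on array 1 and above 0 on array 2, Thrb spots scatter around 0, and Crym spots lie between 0.85 and 1.37.

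Of the 6 genes other than Crym, 0 passed over all genes, where 3.79% of genes passed (836 of 22070; 1.76% higher and 2.03% lower). In limma's fit 1 of the 6, Thra, had an unadjusted p below 0.05 (0.0193), as did 22.5% of all genes. Of all genes, 85.8% had a mean ratio closer to 0 than that of Thra, 74.6% closer than Hr and 34.4% closer than Dio2. For Klf9, Dio3 and Thrb these shares were 20.4%, 19.6% and 10.3%. A p that misses the threshold does not show equal levels. The 95% intervals, which rest on 1 residual degree of freedom and a fitted prior, reach from -0.34 for Klf9 to 0.57 for Thra.

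**Figure D3:**
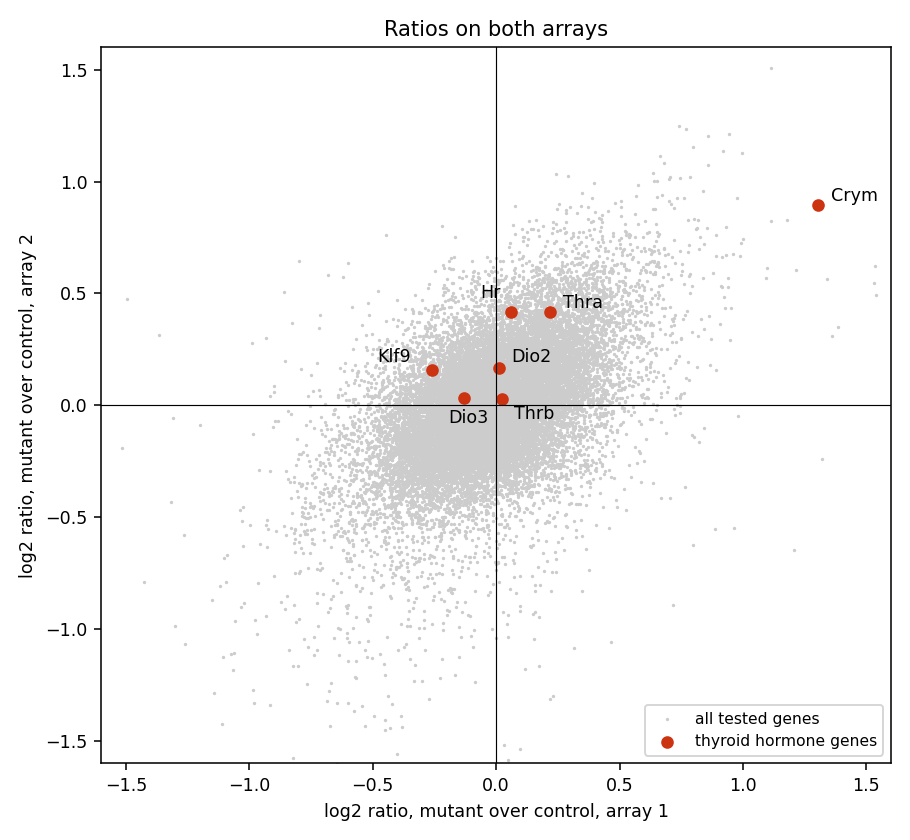
Log2 ratio of mutant over control on array 1 (horizontal axis) and array 2 (vertical axis) for 22070 genes (grey) and the 7 thyroid hormone genes (red); 48 genes lie outside the axis limits of 1.6. Crym stands at 1.30 and 0.90, Thra and Hr at 0.42 on array 2, and Klf9 among the genes of opposite signs.

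The 5 genes whose pair of array ratios lay nearest to that of Crym were Ipcef1, Scnn1b, Kcnj10, Tfcp2l1 and Itln1, by Euclidean distance over the 2 arrays. Ipcef1 was nearest, with ratios of 1.18 and 0.83 on arrays 1 and 2 and a distance of 0.14. Scnn1b, a subunit of the epithelial sodium channel, followed with 1.11 and 0.83 at a distance of 0.20. Kcnj10, an inwardly rectifying potassium channel, had 1.22 and 0.60, at a distance of 0.30. Tfcp2l1, a transcription factor of kidney collecting ducts, had 0.98 and 0.93 at 0.33, and the lectin Itln1 had 1.34 and 0.56, also at 0.33. Likeness over 2 arrays is coarse, and nothing is read from it about function.

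The wider pathway was followed in 5 lists of handling, receptor and cofactor genes and 2 lists of hormone targets. Among hormone binding proteins beside Crym, Serpina7 and Alb, the plasma carriers, were not well above background in either genotype. The third carrier, Ttr, had -0.81 on array 1 and -0.15 on array 2, a mean of -0.48 ± 0.46 (SD, n = 2; limma adjusted p = 0.122). Of 11 genes of deiodination and hormone conversion 9 were tested, with a median of 0.01 against -0.02 for all genes, and 1 rose and 1 fell. Of all genes 1.76% rose and 2.03% fell. Usp20, a deubiquitinase that spares Dio2 from degradation, read 11.57 and 11.82 in control and 12.09 and 12.25 in mutant RNA and rose by 0.47 ± 0.06 (SD, n = 2; limma adjusted p = 0.0491). Sult1a1, a sulfotransferase that acts on iodothyronines, read 8.62 and 8.63 in control and 8.17 and 7.92 in mutant RNA and fell by 0.58 ± 0.18 (SD, n = 2; limma adjusted p = 0.0352). Neither overlapped between genotypes, an order that 21.5% of all genes show upward and 23.5% downward. Wsb1, the ubiquitin ligase adaptor that marks Dio2, had -0.39 ± 0.07, Sult1b1, well above background in mutant RNA on 1 array alone, had 0.18 ± 0.01 and the liver and kidney deiodinase Dio1 had -0.13 ± 0.01 (SD, n = 2), and none of these passed.

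Of 10 hormone transporters 8 were tested, with a median of 0.13, and 1 rose, as did 1.76% of all genes. This was Slc7a8, the light chain of an amino acid exchanger that also carries triiodothyronine, which read 9.15 and 9.23 in control and 9.64 and 9.86 in mutant RNA and rose by 0.56 ± 0.10 (SD, n = 2; limma adjusted p = 0.0340). Its heavy chain partner Slc3a2 had -0.06 ± 0.39. Slco3a1 and Slc16a10 had 0.30 ± 0.06 and 0.22 ± 0.09 (SD, n = 2), and neither passed. Over their probes the means ran from 0.11 to 0.30 for Slco3a1 and from -0.10 to 0.22 for Slc16a10. Slco4a1 went opposite ways, with 0.19 on array 1 and -0.74 on array 2. Slc3a2 is named after its values were seen, as the partner of Slc7a8.

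Receptors and their partners held no called gene among 7 tested, with a median of 0.13. Of all genes 3.79% passed, a share at which a list this small may well hold no call. Besides Thra, the retinoid X receptors Rxra and Rxrg had 0.18 ± 0.02 and -0.20 ± 0.16, though the second Rxrg probe had a mean of -0.86. Averaged over its probes Rxrg had an adjusted p of 0.0258. Corepressors and coactivators also held none among 13, with a median of 0.10. The p160 coactivators Ncoa3 and Ncoa1 had 0.47 ± 0.23 (SD, n = 2; limma adjusted p = 0.0683) and 0.33 ± 0.14, and Ncoa6 had 0.39 ± 0.03. Their lowest probes had 0.20 for Ncoa3, 0.08 for Ncoa1 and 0.01 for Ncoa6. With an intensity trend in the variance Ncoa3 passed, at an adjusted p of 0.0380.

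Genes that the hormone induces in other tissues had a median of -0.05 over 18 tested, with 0 higher and 2 lower. Of all genes 1.76% were higher and 2.03% lower. Thrsp, a lipogenic gene of fat and liver, read 12.58 and 12.29 in control and 10.80 and 9.34 in mutant RNA and fell by 2.36 ± 0.83 (SD, n = 2; limma adjusted p = 0.00745). Myh6, the atrial myosin heavy chain, read 11.69 and 11.66 in control and 9.29 and 9.73 in mutant RNA and fell by 2.17 ± 0.34 (SD, n = 2; limma adjusted p = 0.000827). Markers of cells known to express them were measured beside them. Values of the adipocyte and muscle marker lists were in view when the lists were drawn up. Their falls are therefore description and lend no support. Of 8 adipocyte markers 7 were tested, and all 7 were below 0 on both arrays, as were 36.0% of all genes, and 6 fell. Their summed signal was 99914 and 78909 in control and 56500 and 18178 in mutant RNA. All 6 tested markers of heart and striated muscle, Myh6 included, were below 0 on both arrays. Of the 5 other than Myh6, 1 fell, Ckm. The bright markers Tnnt2 and Actc1 had -0.44 ± 0.03 (SD, n = 2; limma adjusted p = 0.0581) and -0.36 ± 0.04 (SD, n = 2; limma adjusted p = 0.101). Tnni3 had -0.02 ± 0.03 (SD, n = 2; limma adjusted p = 0.919). The sums of the 5 without Myh6 were 47465 and 46463 in control and 35496 and 34975 in mutant RNA. Tnnt2 and Actc1, which did not pass, make up most of each sum. Myl7 and Mb were not well above background in either genotype. The part of these cells in the values of Thrsp and Myh6 was not tested. The myelin gene Mbp, at 0.49 ± 0.17 (SD, n = 2; limma adjusted p = 0.0521), the pacemaker channel Hcn2, at -0.27 ± 0.04, and Fgf21, at -0.27 ± 0.06, did not pass. The Hcn2 probes ran from -0.27 to -0.06. Mbp passed as higher with probes well above background in all 4 channels (adjusted p = 0.0399) and with an intensity trend (adjusted p = 0.0277).

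Of 7 genes that the hormone lowers in other tissues 6 were tested, with a median of -0.07 and 1 lower, as were 2.03% of all genes. This was Cd44, the hyaluronan receptor, which read 13.13 and 12.80 in control and 12.38 and 12.25 in mutant RNA and fell by 0.65 ± 0.14 (SD, n = 2; limma adjusted p = 0.0243). Its 4 probes ran from -0.65 to -0.22. Adcy5, Myh7 and Trh had 0.34 ± 0.23, -0.27 ± 0.13 and -0.17 ± 0.12 (SD, n = 2), with Trh well above background in mutant RNA on 1 array alone. The Adcy5 probes ran from 0.10 to 0.34. Myh7 is the ventricular myosin, which the hormone opposes to Myh6 in the heart. It was below 0 on both arrays, as were 36.0% of all genes, and did not pass (limma adjusted p = 0.189). The part of the hormone in either value was not tested.

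**Figure D4:**
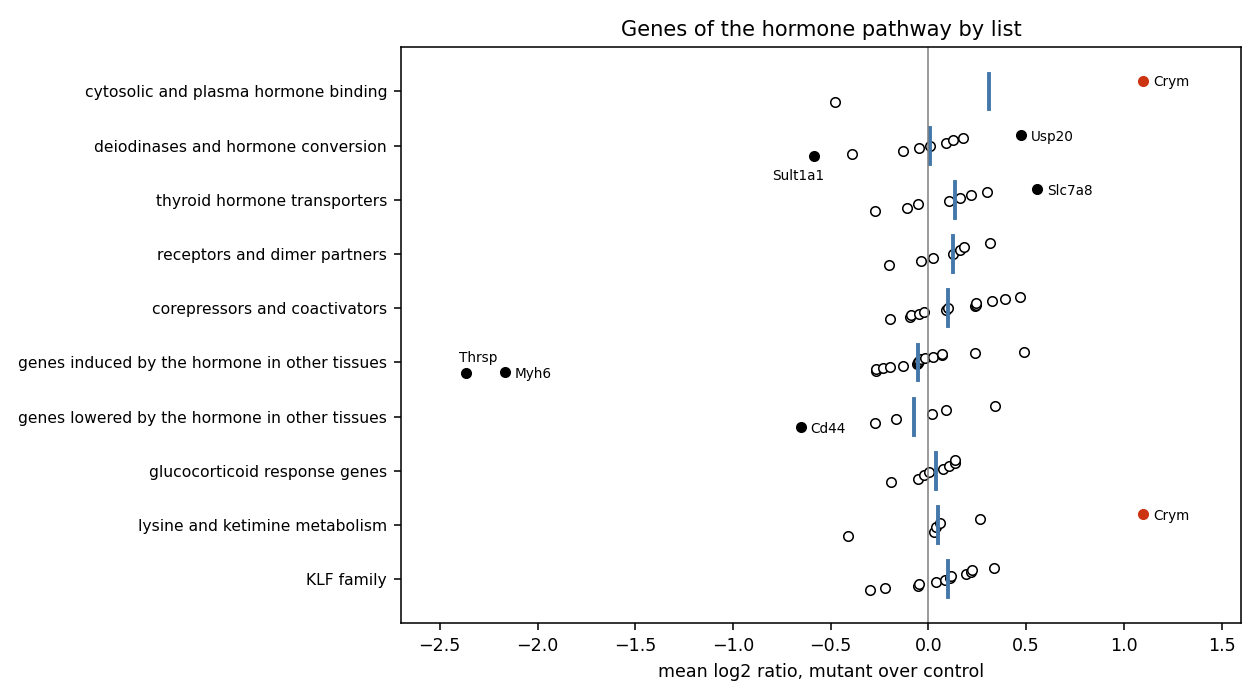
Mean log2 ratio of mutant over control (horizontal axis) of each tested gene by list, with filled points for genes that passed, open points for genes that did not, Crym in red without a test, and a blue bar at the median of the list, Crym included. The genes lie mostly between -0.5 and 0.5, with Thrsp and Myh6 far to the left and Crym to the right.

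Over the distinct genes of all lists, 81 were tested besides Crym and 6 passed, 2 higher and 4 lower, which is 7.41% against 3.79% of all genes. Thrsp and Myh6 had been seen to fall when the lists were drawn up. Without them 4 of 79 passed, or 5.06%, with a median of 0.04. Most of these calls were lost under 4 other settings. With median centring 0 of the 6 passed, and with channels fitted singly, with no array block, Myh6 alone did. The scanner software's signals also left Myh6 alone, and the authors' deposited values left Myh6 and Thrsp.

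Some markers of epithelial cells were also higher in mutant RNA. Of 8 urothelial markers 2 rose, Upk1a and Upk3b, and 0 fell, and the median was 0.44. Of all genes 1.76% rose and 2.03% fell. The basal keratin Krt5 had -0.46 ± 0.30 (SD, n = 2; limma adjusted p = 0.0833), with probes from -0.46 to -0.05, and Krt20 had -0.01 ± 0.16. The summed signal of the 8 was 189425 and 185879 in control and 254433 and 301663 in mutant RNA on arrays 1 and 2. Of 3 kidney tubule markers well above background in control RNA 1 rose, Cdh16, by 2.43 ± 1.41 (SD, n = 2; limma adjusted p = 0.0194), while Cubn had -0.01 ± 0.11 and Slc34a1 had -0.14 ± 0.04. Umod and Kcnj1 were not well above background in control RNA, so they were measured through the mutant RNA alone. By the mean of both arrays they were at least 1.86-fold and 1.74-fold higher in mutant RNA, against the lowest signal of well-measured probes, 6.54. Mutant levels on arrays 1 and 2 were 7.96 and 6.92 for Umod and 7.84 and 6.83 for Kcnj1, so these bounds do not hold for array 2 alone. Slc12a1, Slc12a3 and Lrp2 were not well above background in either genotype. The summed signal of the 5 tested kidney tubule markers was 940 and 1029 in control and 3263 and 1437 in mutant RNA. That sum holds Umod and Kcnj1, which entered through the mutant RNA alone, so it is not read as a rise of the list. It also holds Cdh16, whose level was 7.68 and 7.78 in control and 11.11 and 9.22 in mutant RNA. Smooth muscle markers had a median of 0.04 and 0 of 8 passed, with Acta2 at 0.00 ± 0.03 (SD, n = 2; limma adjusted p = 0.994). The part of such cells in the ratio of Crym was not tested.

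**Figure D5:**
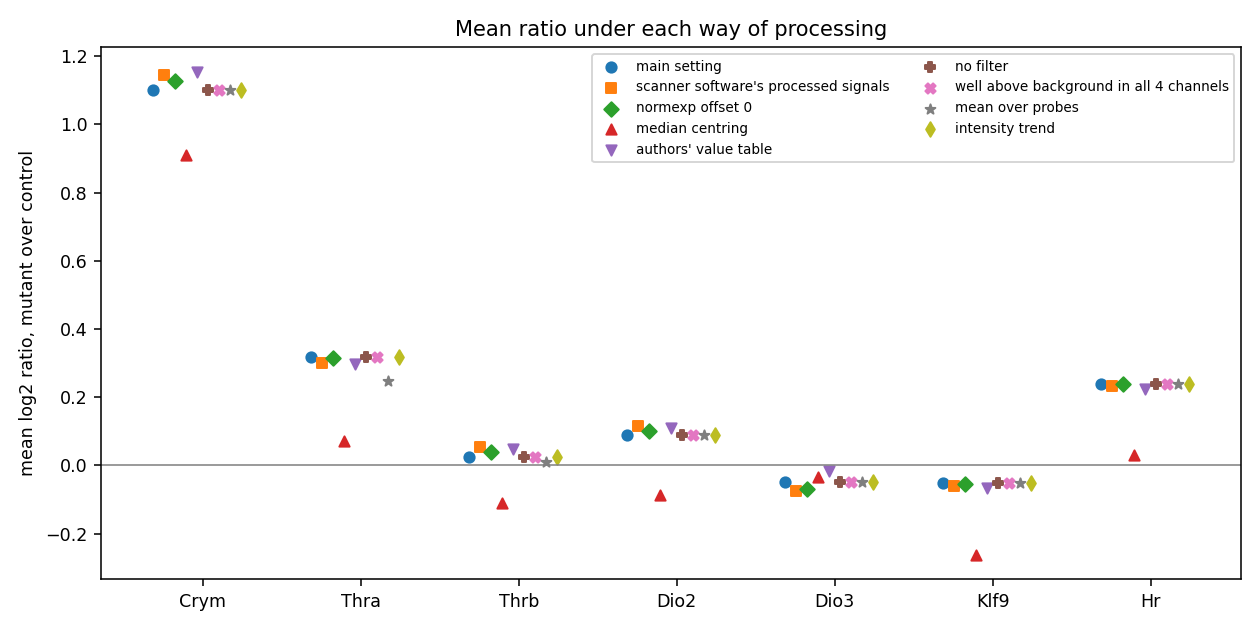
Mean log2 ratio of mutant over control (vertical axis) of the 7 genes under 9 ways of processing, each with its own symbol. Crym stays between 0.91 and 1.15, and median centring sets 6 of the 7 genes lower than the main setting.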

How the data were processed

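Both arrays were two-colour Agilent arrays labelled from 150 ng of total RNA. The deposited mean and background intensity values came from Agilent Feature Extraction, with version 10.7.3.1 listed in the submitters' processing notes. Its processed intensity values were detrended, background-subtracted and dye-normalised, and their log10 ratios formed, per the file headers. For each probe the value table deposited by the authors gives a score that reads as a signed fold change. Set against the scanner ratios (r = 0.84 and 0.85 after turning), it runs mutant over control, and its scale appears linear, but whether it was centred stays unknown. Its median was 1 on both arrays.

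Background was corrected by normexp (offset 50, which pulls dim ratios towards 0) and ratios by loess, with limma 3.58.1 in R 4.3.3. Outlier spots and 19304 repeats of a filler probe were left out, 4 spots averaged per probe, and a gene represented by its brightest probe. Ratios were tested with lmFit and eBayes, two-sided, Benjamini-Hochberg adjusted, at 0.05. A probe was tested if a share above 0.5 of its spots passed the software's background test in 1 genotype or both, on each array. Of 39429 probes, 28328 were named by accession through RefSeq (GRCm38.p6, names alone). Members, lists and tests were chosen with earlier results of these data known. The rule named every member, the called genes and the 3 largest other ratios of each list, and the brightest markers. Levels came from separate channels after quantile normalisation of the average signal. Some listed genes are not reported here by name. The number of arrays limits the precision.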

Additional observations from a re-analysis of the deposited data

Results flagged for a closer look

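Named genes whose brightest probe had ratios on opposite sides of 0 on array 1, labelled male, and array 2, labelled female, were picked out. Opposite signs occur in 33.5% of all genes. The difference between the arrays, array 1 minus array 2, was -0.421 for Klf9, -0.163 for Dio3, 0.934 for Slco4a1, -0.439 for Zbtb16, 0.805 for Dusp1, -0.536 for Pipox and -0.546 for Slc3a2, on the log2 scale. It was 0.0822 for Nr1d1, -0.0355 for Acta2, 0.153 for Cubn and -0.232 for Krt20. With 1 array per sex label and dye orientation the differences were not tested, and sex, dye and replicate cannot be told apart.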

How the results depend on the processing

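The ratio of Crym lay between 0.91 and 1.15 over all 10 planned ways of processing, and at 0.90 and 1.30 on the single arrays. None of the other 6 genes passed in any of these settings, nor at an adjusted p below 0.1, with adjusted p from 0.132 (Thra) to 0.964 (Thrb). Signs turned for 4 of them. Under median centring Thrb had -0.11 and Dio2 -0.087. The single arrays ran from -0.13 to 0.032 for Dio3 and from -0.26 to 0.16 for Klf9, with the higher value on array 2. The all-gene median went from -0.02 to -0.14 under median centring, which turned the sign of 7 of 10 list medians. Relative to that shift Crym was at 1.05, Thra at 0.21 and Klf9 at -0.12. Of all genes, 836 passed in the main setting, 10 with the scanner software's signals (50% of them higher), 170 with the authors' value table, 0 with median centring (5584 at an unadjusted p below 0.05), 3 with separate channels without the replicate block, 1415 with an intensity trend, and 1907 at an adjusted p below 0.1. Of the pathway genes besides Crym, 6 passed in the main setting, 1, 2, 0 and 1 in the first 4 of these, 8 with an intensity trend and 11 at the looser threshold. With the array as a replicate block, separate channels gave the same 836 calls by construction. Usp20 also missed the threshold with no normexp offset, at an adjusted p of 0.0542. The cause of these shifts was not tested. Dio3 and the second Thrb probe lie near the background signal, which limits their ratios.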

Other observations

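Klf9 also answers to glucocorticoids and belongs to a large family, and Crym is an enzyme of lysine and ketimine metabolism. Of 8 glucocorticoid response genes 0 passed limma's test, with a median of 0.04, where 3.79% of all genes passed. The cochaperone gene Fkbp5 had 0.13 ± 0.12 (SD, n = 2), while Zbtb16 had -0.41 on array 1 and 0.03 on array 2 and Dusp1 had 0.54 and -0.27. Of 12 tested KLF genes 0 passed, with a median of 0.10. At that share of all genes, lists this small may well hold no call. The urothelial and gut factor Klf5 had 0.34 ± 0.34, Klf10 had -0.30 ± 0.34 and Klf3 had 0.22 ± 0.01 (SD, n = 2).

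Around the ketimine reductase reaction of Crym, 5 of 6 other genes were tested and 0 passed, where 3.79% of all genes passed. The bifunctional first enzyme of lysine breakdown, Aass, had -0.58 on array 1 and -0.24 on array 2, a mean of -0.41 ± 0.24 (SD, n = 2; limma adjusted p = 0.0989). The dehydrogenase Aldh7a1 had 0.26 ± 0.10, and the pipecolate oxidase Pipox had -0.21 on array 1 and 0.33 on array 2. Crym was thus the member of this list farthest from 0, as its choice would have it.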
